A study of Rattus norvegicus with 4 samples.

Results

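The genes described here encode the mitochondrial respiratory chain: the subunits of complexes I to V, with a few complex I assembly factors whose symbols share the Nduf prefix. A gene was taken as a member when its probe set carried a single annotated symbol beginning with Nduf (a, b, c, s or v), Uqcr, Cox (4 to 8) or Atp5, or was an Sdh subunit gene, Cyc1 or Cycs. This gave 86 of the 12922 genes measured, on 92 probe sets, and each gene was represented by its brightest probe set over all arrays. They comprised 34 genes of complex I, 4 of complex II, 8 of complex III, 19 of complex IV, 16 of complex V and 5 assembly factors. Ndufa4 and Ndufa4l2 were counted with complex IV, where the Ndufa4 protein is now placed. Another 9 probe sets, annotated to a member and to a close copy of it, were not analysed here; they stand for Cycs, the electron carrier cytochrome c, and for Atp5mc1, Atp5mc2, Cox7a2, Uqcrb, Ndufs5, Ndufa10 and a second reading of Cox5a.

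The samples were cultures of vascular smooth muscle, the contractile layer of the artery wall, from rat aorta. Both groups had 24 h in 10% serum and then 72 h without serum or insulin. The PDGF-BB group (2 arrays) then received platelet-derived growth factor BB at 30 ng/mL, and the vehicle group (2 arrays) received 0.2% bovine serum albumin in 10 mM acetic acid, each for 3 h. The series asked which early genes accompany the change of phenotype brought about by this mitogen. Whether the arrays within each group stem from different cultures is not labelled, and p-values therefore measure only array-to-array spread, which may be technical.

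The respiratory chain passes electrons from NADH (complex I) and succinate (complex II) through ubiquinone to complex III, then by cytochrome c to complex IV, which reduces oxygen. The protons pumped on the way drive ATP synthase, complex V. Nearly all subunits are encoded in the nucleus, and dedicated assembly factors help to build the complexes without being part of the finished enzymes.

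The median probe set intensity was 132 to 148 over the 4 arrays, and log2 values correlated at 0.993 to 0.995 within groups and 0.959 to 0.963 between them. The highest intensity of 27 Bacillus control probe sets, 80.3, served as a rough yardstick of background. All 8 smooth muscle markers lay above it, against 0 of 4 endothelial, 1 of 6 leukocyte, 3 of 5 neural and glial and 5 of 8 cardiac and skeletal muscle markers, the brightest of these being Acta1 and Myh6. With PDGF-BB 4 of the 8 smooth muscle markers were called lower, as was Acta1 alone among the other markers; their part in the results was not tested. Fewer cells of a type and less RNA per cell cannot be told apart here. PDGF-BB array 2 was lower than PDGF-BB array 1 in 9160 of the 12922 genes and in 55 of the 86 members.

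Few respiratory chain genes were called after 3 h of PDGF-BB. Limma, fitted over the whole array on log2(intensity + 16) and adjusted by Benjamini-Hochberg at a threshold of 0.05, called 3 of the 86 members higher and 3 lower, or 6.98%, and 80 did not pass. Among all genes 27.7% were called, 12.4% higher and 15.3% lower. The assembly factor Ndufaf4, the ATP synthase subunit Atp5f1d and the isoform Cox6b2 rose. The complex I subunit Ndufv3, the complex II subunit Sdha and the assembly factor Ndufaf7 fell. Ndufaf4 rose 2.59-fold, and the other 5 called members moved by less than 1.5-fold on the log2(intensity + 16) scale.

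The size of the differences was described by the 95% interval of each log2 difference (PDGF-BB minus vehicle, from limma). That interval lay wholly within 1.5-fold in either direction for 75 of the 86 members, 87.2%, against 46.5% of all genes. The offset of 16 narrows the intervals of dim genes, so the 73 members with a mean intensity of 1000 or more were also taken alone. Of these, 67 had intervals within 1.5-fold, 91.8%, against 62.2% of the 2970 genes with a mean of 1000 or more. The sets were not matched for brightness: median vehicle intensity was 3316 in these members and 1818 in the 2970 genes. Limma called 2 of them higher and 2 lower, where 20.5% and 10.5% of the 2970 genes, 31% in all, were called. The mean was taken over all 4 arrays, so a gene could reach 1000 through its PDGF-BB values alone. Ndufaf4, among those called higher, did so, with means of 737 with vehicle and 1938 with PDGF-BB. These shares are therefore description only. The members were not tested as a set. Like the p-values, the intervals cover only array-to-array spread, and they were counted under the main scaling alone.

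**Figure D1:**
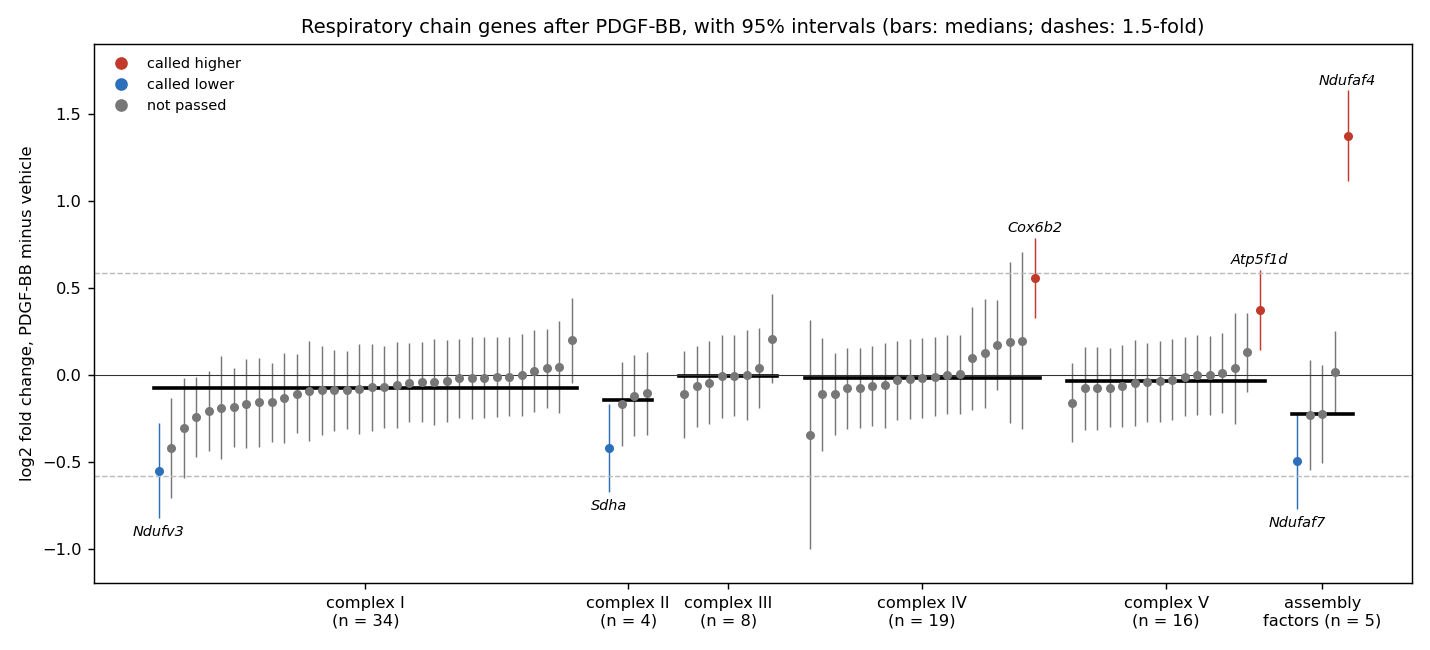
Log2 difference (PDGF-BB minus vehicle) of each of the 86 respiratory chain genes by complexes I to V and the assembly factors; lines are 95% intervals from limma, thick bars are group medians, and dashes mark 1.5-fold in each direction. The 6 called genes are coloured and named, and 75 intervals lie wholly between the dashes.

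Separation of the arrays was counted apart from the test. Both PDGF-BB arrays were below both vehicle arrays in 38 members and above them in 9, against 37.8% and 29.7% of all genes, 67.5% together. Among the 73 bright members the counts were 35 below and 7 above, against 38.8% and 44.1% of genes as bright, 82.9% together. With 2 arrays a group, separation alone is a weak criterion.

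The sign of the small shifts depended on the scaling between arrays. The members' median log2 difference was -0.046, against -0.030 for all genes and 0.015 for genes with a mean of 1000 or more, and 66 members were below 0 and 19 above. The members' median was -0.19 after quantile normalization and -0.11 after cyclic loess, against -0.052 and -0.015 for all genes. With each array's median subtracted the members' median was 0.030, against 0.047 for all genes, and 33 members were below 0 and 53 above. Quantile normalization called 19 members lower and 2 higher, in place of 3 and 3, and 37% of all genes. An offset of 1 in place of 16 ended 4 calls, those of Ndufv3 (adjusted p by limma 0.0521), Ndufaf7 (0.0612), Sdha (0.0706) and Atp5f1d (0.0715). With that offset 20% of all genes were called. Leaving out an array lowered the number of calls over the whole table. The share of all genes called was 6.12% without vehicle array 1, 6.55% without vehicle array 2, 20.8% without PDGF-BB array 1 and 14.7% without PDGF-BB array 2, against 27.7% with all 4. In the same fits 1 member was called higher each time, and the members called lower numbered 0, 0, 2 and 0. The log2 differences moved less than the calls: without 1 array in turn that of Sdha was -0.48 to -0.36 and that of Atp5f1d 0.35 to 0.40.

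Ndufaf4, which helps to assemble complex I, rose. It read 723 and 751 with vehicle and 2028 and 1847 with PDGF-BB. Both PDGF-BB arrays were far above both vehicle arrays. The log2 difference was 1.37 (SE 0.097, 95% interval 1.11 to 1.63), with an adjusted p of 0.00277 by limma. It was called in all 14 alternative settings, with log2 differences of 1.28 to 1.45 and adjusted p-values by limma of up to 0.0372.

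The other assembly factors among the members were lower or near 0. Ndufaf7, a methyltransferase that modifies a complex I subunit, fell from 251 and 262 with vehicle to 189 and 167 with PDGF-BB. Both PDGF-BB arrays were below both vehicle arrays, and the log2 difference was -0.49 (SE 0.10, adjusted p by limma 0.0338). The call of Ndufaf7 ended without vehicle array 1 (adjusted p by limma 0.168), vehicle array 2 (0.199) or PDGF-BB array 2 (0.0842). Ndufaf3 and Ndufaf5, further complex I assembly factors, had log2 differences of -0.23 and -0.23 and did not pass, and Ndufaf8 was at 0.013.

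Promoter sequences are shown for the member that rose most, for the complex I and II subunit genes that fell and for 1 complex IV gene that did not pass, so that known respiratory promoter letters can be set beside the changes. RefSeq promoter windows (GRCr8, 250 bases before to 50 after the start) were matched for 77 of the 86 members, all but Ndufa8, Ndufb9, Uqcr11, Cyc1, Cox4i2, Cox6a1, Cox6c, Cox6c-ps1 and Atp5pd. Each stretch covers the 170 bases before the annotated start, 5′ to 3′ on the gene's strand. Capitals mark matches, on either strand, to the letters of NRF1 (GCGCA, any base, then GCGC), GABP/ETS (CCGGAAG), YY1 (AAGATGG) or the E-box (CACGTG). NRF1 and GABP are known activators of respiratory chain genes. The E-box, which MYC binds, was added after the values were seen.
Ndufaf4 (chr5:43401625-43401794, plus strand): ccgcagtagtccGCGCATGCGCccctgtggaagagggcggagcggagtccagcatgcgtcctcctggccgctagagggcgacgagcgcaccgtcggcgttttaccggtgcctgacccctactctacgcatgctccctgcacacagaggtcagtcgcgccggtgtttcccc
Sdha (chr1:30764383-30764552, plus strand): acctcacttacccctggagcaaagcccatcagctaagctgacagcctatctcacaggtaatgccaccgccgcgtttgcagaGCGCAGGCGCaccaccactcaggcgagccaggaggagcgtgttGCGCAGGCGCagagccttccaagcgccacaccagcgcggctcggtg
Ndufv3 (chr20:9613616-9613785, plus strand): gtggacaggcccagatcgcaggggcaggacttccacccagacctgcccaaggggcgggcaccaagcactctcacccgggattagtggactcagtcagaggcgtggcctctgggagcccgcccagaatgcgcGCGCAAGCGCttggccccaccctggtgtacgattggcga
Cox8a (chr1:213833624-213833793, minus strand): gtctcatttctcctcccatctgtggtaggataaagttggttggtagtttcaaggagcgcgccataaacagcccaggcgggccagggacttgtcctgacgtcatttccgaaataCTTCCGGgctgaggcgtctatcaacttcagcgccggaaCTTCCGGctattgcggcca

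The stretches of Ndufaf4, Sdha and Ndufv3 hold the NRF1 letters at 1, 2 and 1 places, the first of them readable on both strands, and that of Cox8a holds the GABP/ETS letters at 2 places on the other strand. Matches of different motifs did not overlap. An NRF1 match in Sdha, an E-box in Ndufaf4 and a YY1 match in Cox8a span the start and so are not printed. The called members not shown, Atp5f1d, Cox6b2 and Ndufaf7, hold the letters of none of these motifs in their whole windows. In the whole windows, the NRF1 letters were in 19.5% of the 77 members, against 4.25% of all 33469 windows and 8.03% of the 11933 windows of genes measured here. In the same order, the GABP/ETS letters were in 27.3%, 8.75% and 14.4%, the YY1 letters in 26%, 7.01% and 7.71%, and the E-box in 7.79%, 6.42% and 8.63%.

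The median log2 differences were -0.050 in the 15 members with the NRF1 letters and -0.046 in the 62 without, and -0.050 and -0.046 in the 21 with and 56 without the GABP/ETS letters. With the YY1 letters the median was -0.062 in 20 members, and without them -0.046 in 57. Both directions occurred with the NRF1 letters, in Ndufaf4, which rose, and in Sdha and Ndufv3, which fell. For the E-box it was -0.024 in the 6 members with it and -0.061 in the 71 without. Of the members with the GABP/ETS or the YY1 letters 0 of 21 and 0 of 20 were called, and of those with the NRF1 letters 3 of 15, where 27.7% of all genes were. These are matches of letters, not binding sites shown in these cells.

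Complex I, the NADH dehydrogenase, had 1 of 34 genes lower and 0 higher, with a median log2 difference of -0.078. The counts moved with the settings: quantile normalization called 12 of the 34 lower and 0 higher, and an intensity trend in limma's variance called 7 lower and 1 higher, with 37% and 36.5% of all genes called. All 34 were bright, with vehicle means of 1323 to 4935. Ndufv3, an accessory subunit of the module that oxidises NADH, fell from 1678 and 1652 with vehicle to 1199 and 1065 with PDGF-BB. The groups did not overlap, and the log2 difference was -0.55 (SE 0.10, 95% interval -0.83 to -0.28, adjusted p by limma 0.0250). Ndufv3 missed the threshold without vehicle array 1 (adjusted p by limma 0.163), vehicle array 2 (0.148) or PDGF-BB array 2 (0.0659). A second probe set of Ndufv3 read -0.33 (SE 0.10, adjusted p by limma 0.0864) and did not pass.

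The measured core subunits of complex I, some of which carry its redox centres, were all on the lower side and did not pass. Of the 7 core subunits encoded in the nucleus, a grouping made after the values were seen, 6 were measured, with log2 differences of -0.42 to -0.061 and a median of -0.17, against -0.059 in the 28 accessory subunits. Ndufs1, the largest of them, read 1534 and 1598 with vehicle and 1346 and 1181 with PDGF-BB, groups that did not overlap, at -0.31 (SE 0.11, adjusted p by limma 0.113). In pairs given with vehicle first, Ndufs3, a core subunit picked for mention once its value was known, read 1543 and 1477 against 1199 and 1052, at -0.42 (SE 0.11, adjusted p by limma 0.0548). Ndufs3 passed in 7 of 14 alternatives and Ndufs1 in 4 of 14. Ndufv1, which binds NADH, read 1566 and 1479.6 against 1516 and 1339, groups that overlapped, at -0.094 (SE 0.11). In these 3 genes PDGF-BB array 2, the array that was lower in most genes, gave the lowest value. Its part in the differences was not tested.

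The other complex I genes were closer to 0. Over all 34, both PDGF-BB arrays were below both vehicle arrays in 18 and above them in 2, against 37.8% and 29.7% of all genes. The 2 brightest, Ndufa1 and Ndufb9, are accessory subunits of the membrane arm. Ndufa1 read 5110.4 and 4760.1 with vehicle and 4707 and 4874 with PDGF-BB, and Ndufb9 read 4691 and 4475 against 4411 and 4523. Both overlapped, with 95% intervals of -0.29 to 0.21 and -0.27 to 0.20. Ndufa12, an accessory subunit picked as the complex I gene farthest above 0, was at 0.20 (SE 0.092, adjusted p by limma 0.207).

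Complex II, succinate dehydrogenase, belongs to both the chain and the citric acid cycle. All 4 of its subunit genes had both PDGF-BB arrays below both vehicle arrays, and 1 passed. Among all genes 37.8% were apart in this direction, and 38.8% of those with a mean of 1000 or more. Sdha, the flavoprotein that oxidises succinate, fell from 2000.1 and 2016 to 1564 and 1431. The log2 difference was -0.42 (SE 0.094, 95% interval -0.67 to -0.17, adjusted p by limma 0.0408) and ranged from -0.56 to -0.34 over 14 alternatives. Sdha lost its call without vehicle array 1 (adjusted p by limma 0.218), vehicle array 2 (0.222), PDGF-BB array 1 (0.0556) or PDGF-BB array 2 (0.0916).

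The other three subunits of complex II were nearer to 0. Sdhb, the iron-sulfur subunit, read 2511 and 2566 with vehicle and 2425 and 2283 with PDGF-BB, at -0.11 (SE 0.09, adjusted p by limma 0.451). Sdhc, a membrane anchor, read 3879.5 and 3917 against 3511 and 3659, at -0.12 (SE 0.087, adjusted p by limma 0.387). Sdhd, the other anchor, read 2149 and 2267 against 1919.8 and 1999, at -0.17 (SE 0.09, adjusted p by limma 0.252). In each the groups were apart but the difference did not pass. The median over the complex was -0.15. It was -0.29 with quantile normalization, where all 4 were called lower, and -0.069 with array medians subtracted.

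**Figure D2:**
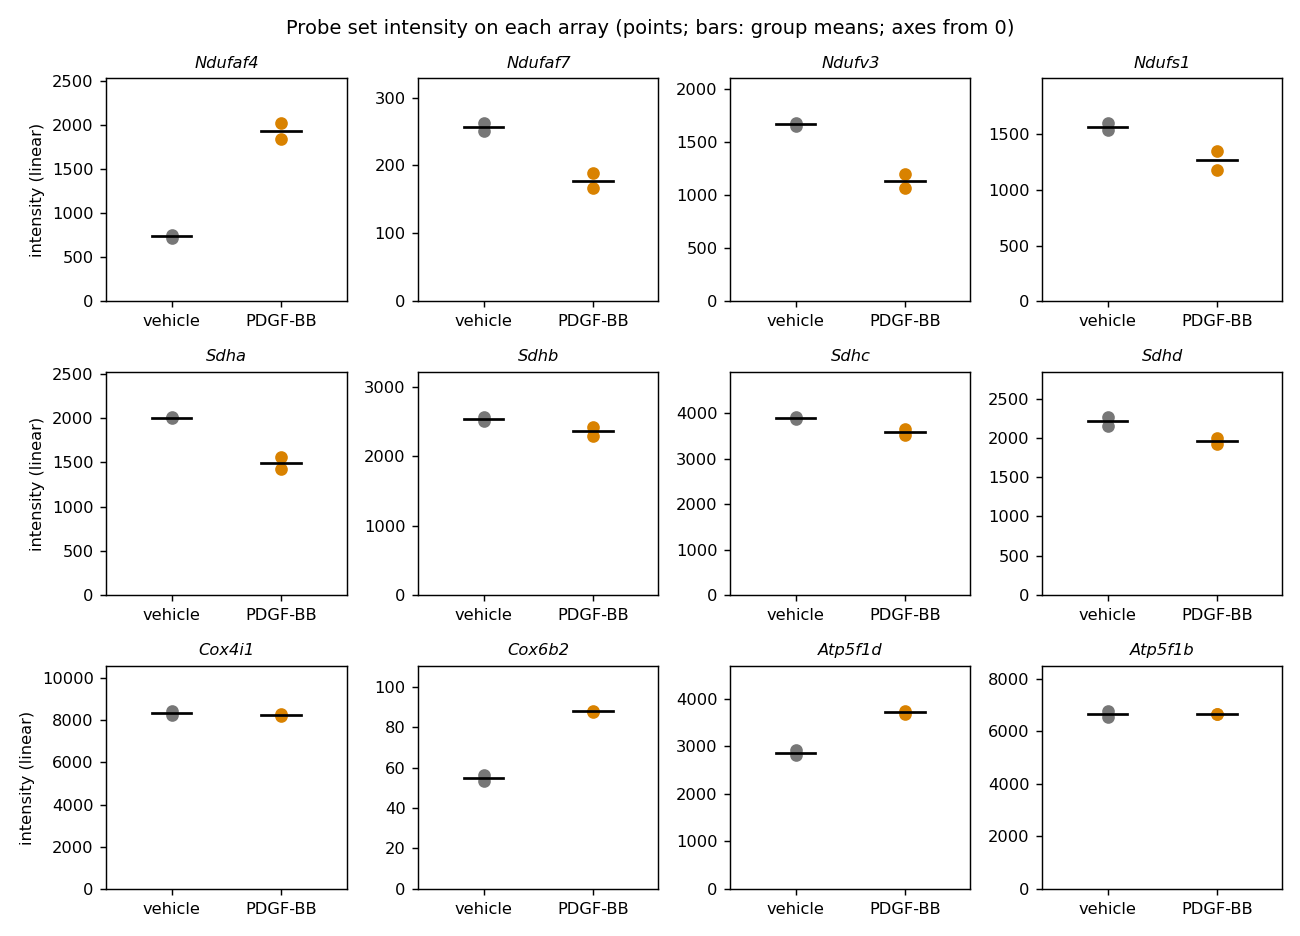
Probe set intensity on each of the 4 arrays (linear axes from 0) for 12 respiratory chain genes in the vehicle and PDGF-BB groups; points are arrays and bars are group means. Ndufaf4 is higher on both PDGF-BB arrays, the 4 Sdh genes are lower on both, and Cox4i1 and Atp5f1b overlap.

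Complex III, which passes electrons from ubiquinol to cytochrome c, had 0 of 8 genes called by limma, and 0 of the 8 reached an unadjusted p under 0.05. The lowest adjusted p by limma was 0.203. With an intensity trend in limma's variance 1 gene passed, Cyc1 (adjusted p 0.0369). All 8 intervals were within 1.5-fold, and the median log2 difference was -0.0084. Cyc1, the cytochrome c1 subunit, read 2380.2 and 2393 with vehicle and 2887 and 2629 with PDGF-BB, both PDGF-BB arrays above both vehicle arrays, at 0.21 (SE 0.096). Uqcrfs1, the Rieske iron-sulfur protein, read 4176 and 4169 against 4068 and 3896, at -0.068 (SE 0.087, 95% interval -0.30 to 0.17). Uqcr10 and Uqcrh, the brightest of the complex, are small accessory subunits. Their groups overlapped, with 95% intervals of -0.29 to 0.19 and -0.24 to 0.23.

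Complex IV, cytochrome c oxidase, is built in part from alternative subunit isoforms. Of its 19 genes, 6 lay at or below the background yardstick in both groups: Cox4i2, an isoform of lung, Cox6a2, Cox7a1 and Cox8b of heart and skeletal muscle, Cox7b2 of testis, and Ndufa4l2, a paralogue of Ndufa4 known to be induced by hypoxia. Cox8b was listed at the same value of 1 on every array. Cox4i2 read 28.4 and 52.7 with vehicle and 23.7 and 31.7 with PDGF-BB, Cox7a1 30.4 and 30.3 against 30.0 and 37.3, Cox6a2 2.03 and 4.87 against 10.0 and 2.94, and Ndufa4l2 7.25 and 8.23 against 7.94 and 4.10. In each of these the groups overlapped, and differences below background were not detectable.

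The isoforms used in most tissues were bright and close to 0. Cox4i1 read 8462 and 8265 with vehicle and 8315 and 8193 with PDGF-BB, groups that overlapped, at -0.019 (SE 0.085, 95% interval -0.25 to 0.21), and at 0.058 when array medians were subtracted. Cox6a1 read 5404 and 5049.9 against 5049.9 and 4959.5, at -0.062 (SE 0.091, 95% interval -0.31 to 0.18). Cox6c overlapped as well, at 6731 and 6777 against 6828 and 6692 (95% interval -0.23 to 0.23). Ndufa4 read 6174 and 6166 against 5815 and 5987, with both PDGF-BB arrays below both vehicle arrays, at -0.064 (SE 0.085, adjusted p by limma 0.643).

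Cox6b2, an isoform known from testis, was the 1 member of complex IV that was called. It read 53.3 and 56.2 with vehicle, under the background yardstick of 80.3, and 88.1 and 87.7 with PDGF-BB, just above it. The log2 difference was 0.55 (SE 0.087, adjusted p by limma 0.0165), and against the yardstick itself the rise was at least 1.08-fold. The call of Cox6b2 ended without vehicle array 1 (adjusted p by limma 0.143), vehicle array 2 (0.117), PDGF-BB array 1 (0.0515) or PDGF-BB array 2 (0.0579). The probe set of Cox5a used here was dim, at 175 to 218. Cox6c-ps1, by its name a pseudogene of Cox6c, read 105 to 129 and did not pass, and signal from such a copy and its parent may not be separable. Cox5a and Cox6c-ps1 were picked once their values were known.

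Complex V, ATP synthase, had 1 of 16 genes called and a median log2 difference of -0.034. Atp5f1d, the delta subunit of the rotating central stalk, rose from 2915 and 2821 to 3752 and 3679, or 1.29-fold. The groups did not overlap, and the log2 difference was 0.37 (SE 0.086, 95% interval 0.14 to 0.60, adjusted p by limma 0.0442). Atp5f1d missed the threshold without vehicle array 1 (adjusted p by limma 0.224), vehicle array 2 (0.259), PDGF-BB array 1 (0.0863) or PDGF-BB array 2 (0.0881). The call also ended with quantile normalization (adjusted p by limma 0.0678). The other subunits of the central stalk, looked up once Atp5f1d was known to be called, were on the lower side without passing: Atp5f1c, the gamma subunit, at -0.16 (SE 0.085) and Atp5f1e, the epsilon subunit, at -0.078 (SE 0.089).

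The catalytic head of ATP synthase was close to 0. Atp5f1b, the catalytic beta subunit, read 6795 and 6568 with vehicle and 6650.1 and 6675 with PDGF-BB, groups that overlapped, with a 95% interval of -0.23 to 0.23 and no sign shared by all scalings. Atp5f1a, the alpha subunit, read 4658 and 4866 against 4497 and 4606, at -0.065 (SE 0.088, 95% interval -0.30 to 0.17). Atp5mc3, of the membrane ring, read 6174 and 6225 against 6741 and 6819, with both PDGF-BB arrays above both vehicle arrays, at 0.13 (SE 0.085, adjusted p by limma 0.345). Atp5if1, the inhibitor that blocks ATP hydrolysis by the enzyme, read 2177 and 2424 against 2525 and 2196, overlapping, at 0.036 (SE 0.12), and its other 2 probe sets did not pass.

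Of 44 listed assembly factors of the complexes, 38 were measured, 14 were called lower and 2 higher, and 22 did not pass. This was 42.1%, beside 27.7% of all genes, with a median log2 difference of -0.23, and 5 of the 38 are the Ndufaf members above. Foxred1, an oxidoreductase for complex I, fell by 0.97 on the log2 scale (SE 0.23, adjusted p by limma 0.0454), and Timmdc1, a membrane protein for complex I, fell by 0.86 (SE 0.13, adjusted p by limma 0.0146). Sdhaf4, which helps Sdha to join Sdhb, fell from 828 and 808 with vehicle to 470.4 and 418 with PDGF-BB, a log2 difference of -0.86 (SE 0.10, adjusted p by limma 0.00835). Further complex II factors were picked once their values were known. Sdhaf2, which attaches the flavin to Sdha, fell by 0.67 (SE 0.13, adjusted p by limma 0.0271). Sdhaf3 fell by 0.55 (SE 0.13, adjusted p by limma 0.0434). Sdhaf1 was at -0.21 (SE 0.11, adjusted p by limma 0.250) and did not pass. Besides Ndufaf4, Ttc19, a complex III factor picked in the same way, rose by 0.60 (SE 0.12, adjusted p by limma 0.0297).

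Brightness and single arrays moved with these counts, and their part was not tested. Over all genes the median log2 difference was -0.17 at a mean intensity of 250 to 500, with 27.7% called lower, and -0.097 at 500 to 1000, with 22.7% called lower. In those bands 4 of 8 and 6 of 14 assembly factors were called lower, with medians of -0.37 and -0.34. Between the background yardstick and 250, 3 of 7 were called lower, with a median of -0.37, against 24.3% and -0.13 for all genes. PDGF-BB array 2 differed from PDGF-BB array 1 by a median log2 value of -0.17 at 250 to 500 and -0.16 at 500 to 1000. Between the yardstick and 250 that median was -0.12. The count of 14 lower was 0 without vehicle array 1, 0 without vehicle array 2, 10 without PDGF-BB array 1 and 2 without PDGF-BB array 2, where the share of all genes called also fell, as given above. In the same 4 fits the log2 difference was -0.94 to -0.78 for Sdhaf4 and -0.99 to -0.73 for Timmdc1. Of the 2 higher, Ndufaf4 alone was called without vehicle array 1, vehicle array 2 or PDGF-BB array 1. Foxred1 lost its call without vehicle array 1 (adjusted p by limma 0.157), vehicle array 2 (0.179) or PDGF-BB array 2 (0.0544). The call of Timmdc1 ended without vehicle array 1 (adjusted p by limma 0.0831), vehicle array 2 (0.101) or PDGF-BB array 2 (0.0539). Sdhaf4 missed the threshold without vehicle array 1 (adjusted p by limma 0.0790) or vehicle array 2 (0.0713). An offset of 1 left 5 lower and ended the calls of Foxred1 (adjusted p by limma 0.0938), Sdhaf2 (0.0592), Sdhaf3 (0.0805) and Ttc19 (0.0609), among others.

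**Figure D3:**
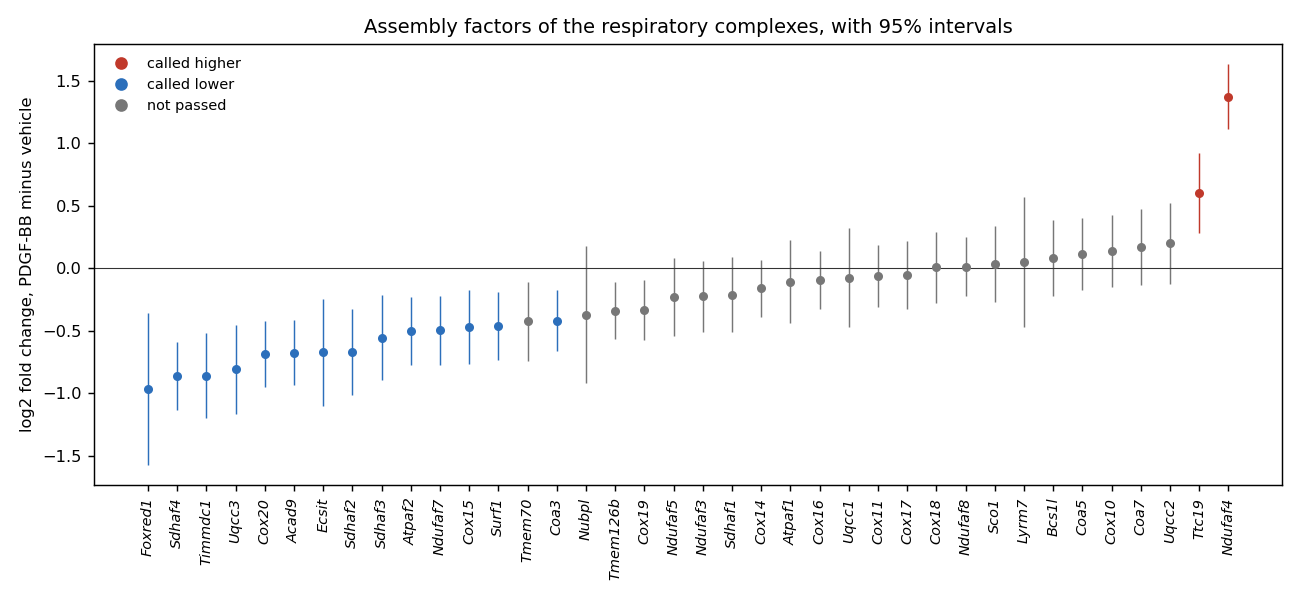
Log2 difference (PDGF-BB minus vehicle) with 95% intervals for the 38 measured assembly factors of the respiratory complexes, in order of size; colours mark limma's calls. The genes called lower number 14, and Ndufaf4 and Ttc19 are called higher.

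**Figure D4:**
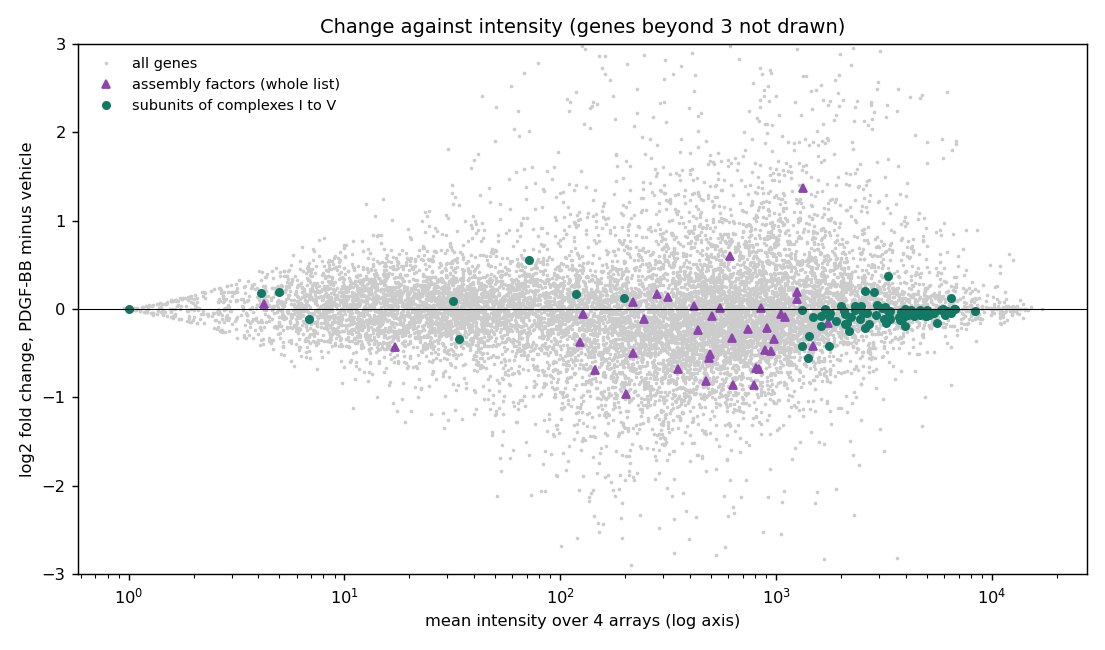
Log2 difference against mean intensity over the 4 arrays (log axis) for all genes (grey), subunits of complexes I to V and assembly factors; 85 genes beyond 3 on the log2 scale are not drawn. Of the members, 73 have a mean of 1000 or more, and 75 of the 86 have intervals within 1.5-fold.

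Among regulators of mitochondrial biogenesis, 20 of 21 listed were measured, with 3 higher, 2 lower, 15 not passed and a median of 0.043. The share called was 25%, near the 27.7% of all genes. Pprc1, a coactivator of the PGC-1 family known to respond to serum, rose from 684 and 661 to 1411 and 1327, a log2 difference of 1.01 (SE 0.091, adjusted p by limma 0.00470). Pprc1 lost its call without vehicle array 1 (adjusted p by limma 0.0517) or vehicle array 2 (0.0531). Nrip1, a corepressor of oxidative genes, rose by 1.48 (SE 0.13, adjusted p by limma 0.00426), and Esrra, an orphan nuclear receptor, rose by 0.48 (SE 0.10, adjusted p by limma 0.0350). Ssbp1, which binds single-stranded mitochondrial DNA, fell by 0.49 (SE 0.11, adjusted p by limma 0.0398). The call of Esrra ended without vehicle array 1 (adjusted p by limma 0.167), vehicle array 2 (0.208), PDGF-BB array 1 (0.0545) or PDGF-BB array 2 (0.0910). Ssbp1 missed the threshold without vehicle array 1 (adjusted p by limma 0.189), vehicle array 2 (0.207) or PDGF-BB array 2 (0.0849).

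Nrf1 and Gabpa, whose products bind the promoter letters named above, were not called. Nrf1 read 249.8 and 241 with vehicle and 333 and 293 with PDGF-BB, both PDGF-BB arrays above both vehicle arrays, at 0.33 (SE 0.10, adjusted p by limma 0.0908), and it passed in 5 of 14 alternatives. Gabpa, the DNA-binding subunit of GABP, read 1073 and 1119 against 1119 and 919.8, groups that overlapped, at -0.11 (SE 0.13). Its partner Gabpb1, picked once its value was known, fell by 0.39 (SE 0.089, adjusted p by limma 0.0427). The call of Gabpb1 ended without vehicle array 1 (adjusted p by limma 0.225), vehicle array 2 (0.244), PDGF-BB array 1 (0.0666) or PDGF-BB array 2 (0.0966). Tfam, which packages and transcribes mitochondrial DNA, read 694 and 713 against 883 and 755, at 0.21 (SE 0.11, adjusted p by limma 0.260). The coactivator gene Ppargc1a read 8.15 and 10.1 against 12.1 and 9.05, below background.

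Of 24 genes listed for the citric acid cycle and pyruvate dehydrogenase, 21 were measured, with 3 higher, 2 lower, 16 not passed and a median of -0.049. The share called was 23.8%, near the 27.7% of all genes. Kinases and phosphatases of pyruvate dehydrogenase were 4 of the 5 called. The kinases Pdk1 and Pdk3, named to complete the family, did not pass. They were at -0.28 (SE 0.094, adjusted p by limma 0.102) and -0.22 (SE 0.10, adjusted p by limma 0.203). Pdk2, a kinase that inactivates the enzyme, fell from 353 and 321 to 91.6 and 69.2. Its log2 difference was -1.88 (SE 0.15, adjusted p by limma 0.00360). Pdk4, of the same family, fell by 0.53 (SE 0.091, adjusted p by limma 0.0211), to 85.5 and 81.7. With PDGF-BB both genes read near the background yardstick of 80.3. Pdp1, a phosphatase that reactivates the enzyme, rose from 782 and 869.6 to 2376 and 2210.1. Its log2 difference was 1.46 (SE 0.10, adjusted p by limma 0.00285). Pdp2, a paralogue of Pdp1, rose by 1.17 (SE 0.16, adjusted p by limma 0.0116). Pc, pyruvate carboxylase, rose by 0.70 (SE 0.096, adjusted p by limma 0.0120). Cs, citrate synthase, read 3858 and 3714 against 3769.9 and 3588, overlapping, with a 95% interval of -0.28 to 0.20. Pdk2 and Pdp1 were called in all 14 alternatives. Pdk4 lost its call without vehicle array 1 (adjusted p by limma 0.126), vehicle array 2 (0.162), PDGF-BB array 1 (0.0568) or PDGF-BB array 2 (0.0730). The call of Pdp2 ended without vehicle array 1 (adjusted p by limma 0.0726), PDGF-BB array 1 (0.0568) or PDGF-BB array 2 (0.0502). Pc missed the threshold without vehicle array 1 (adjusted p by limma 0.0788), vehicle array 2 (0.103), PDGF-BB array 1 (0.0518) or PDGF-BB array 2 (0.0564).

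Of 22 genes listed for mitochondrial import and chaperones, 20 were measured, with 5 higher, 1 lower, 14 not passed and a median of 0.17. The share called was 30%, near the 27.7% of all genes. Timm9 and Timm10, partner chaperones of the intermembrane space, rose by 0.95 (SE 0.094, adjusted p by limma 0.00561) and 0.98 (SE 0.13, adjusted p by limma 0.0103). Tomm40, the pore of the outer membrane, rose by 0.70 (SE 0.11, adjusted p by limma 0.0163), and Timm44, which links the inner membrane channel to its motor, fell by 0.90 (SE 0.16, adjusted p by limma 0.0221). Hspd1, the matrix chaperonin, read 4540.4 and 4611 against 5431 and 5372, groups that did not overlap, at 0.24 (SE 0.085, adjusted p by limma 0.119). Timm9 lost its call without vehicle array 1 (adjusted p by limma 0.0570) or vehicle array 2 (0.0600). The call of Timm10 ended without vehicle array 1 (adjusted p by limma 0.0799) or vehicle array 2 (0.0728). Tomm40 missed the threshold without vehicle array 1 (adjusted p by limma 0.103) or vehicle array 2 (0.117). Timm44 lost its call without vehicle array 1 (adjusted p by limma 0.114) or vehicle array 2 (0.118).

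Of 13 carriers, porins and uncoupling proteins, 1 was higher, 1 lower and 11 did not pass, with a median of -0.018. The share called was 15.4%, beside 27.7% of all genes. Slc25a13 and Slc25a12 both encode aspartate-glutamate carriers. Slc25a13 rose by 0.87 (SE 0.14, adjusted p by limma 0.0178) and Slc25a12 fell by 0.60 (SE 0.14, adjusted p by limma 0.0460). The call of Slc25a13 ended without vehicle array 1 (adjusted p by limma 0.114), vehicle array 2 (0.0790) or PDGF-BB array 1 (0.0580). Slc25a12 missed the threshold without vehicle array 1 (adjusted p by limma 0.169), vehicle array 2 (0.211) or PDGF-BB array 2 (0.0883). The ADP/ATP carrier gene Slc25a4 read 8269 and 8770.1 against 8609 and 8294, overlapping, with a 95% interval of -0.25 to 0.23. Its paralogue Slc25a5 read 5311 and 5565 against 6719 and 6782, at 0.31 (SE 0.087, adjusted p by limma 0.0691). Ucp2, an uncoupling protein, read 883 and 821 against 686 and 638, at -0.36 (SE 0.097, adjusted p by limma 0.0648). In both the groups did not overlap and the difference did not pass, though each passed in 5 of 14 alternatives. Over these 4 lists an offset of 1 ended 6 calls, those of Timm44 (adjusted p by limma 0.0541), Timm8a1 (0.0555), Esrra (0.0657), Gabpb1 (0.0689), Ssbp1 (0.0730) and Slc25a12 (0.0867), and quantile normalization ended that of Esrra (0.0983). Timm8a1, an import chaperone gene outside the genes chosen by rule, is named for that loss.

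**Figure D5:**
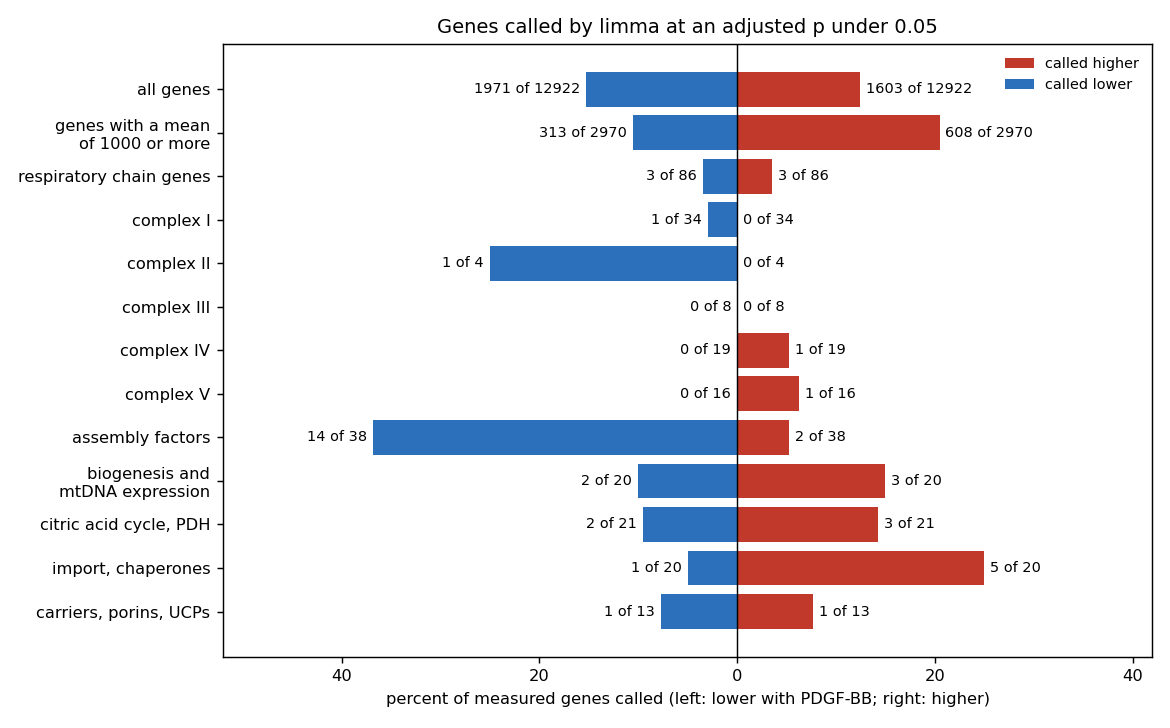
Percent of measured genes that limma called lower or higher at a threshold of 0.05 on the adjusted p, for all genes, genes with a mean intensity of 1000 or more, the respiratory chain genes by complex and the other mitochondrial lists; counts stand at the bars. The respiratory chain genes have 3 of 86 in each direction, and the assembly factors 14 of 38 lower.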

How the data were processed

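Total RNA of 4 samples was made into biotin-labelled cRNA and hybridised to Affymetrix arrays, per the labels' protocols. The values deposited by the authors are linear intensities, 1 per probe set and array. The software, background correction and scaling behind them is not given in the sources used here. Of 23764 probe sets, 57 controls were left out and 23707 were tested. The platform annotation gave 1 symbol for 17279 of these, several for 373 and none for 6055. All 86 members matched a RefSeq gene identifier, and 0 symbols changed.

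Values were taken to log2(intensity + 16) and fitted with limma 3.58.1 (lmFit, eBayes) under R 4.3.3. Tests were two-sided and adjusted by Benjamini-Hochberg over 23707 probe sets. With 2 residual and 4.40 total degrees of freedom, the number of arrays limits the precision. The procedure was run on simulated data with independent noise and a small set of probe sets raised. Such data do not test the scaling between arrays. Log2 differences are understated for dim genes by the offset.

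The members and lists were chosen with earlier results of these data known. Named genes were the called members, the 2 brightest of each complex, genes fixed by name, and up to 4 called genes with the largest change in each other list. Alternatives changed the offset, scaling, dim probe filter, probe set rule, variance model, replicate block and the arrays used.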

Additional observations from a re-analysis of the deposited data

How the results depend on the processing

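In the main setting 3 members were higher and 3 lower, and 2 assembly factors higher and 14 lower. Over the 5 mitochondrial lists together 14 genes were higher and 20 lower. These list genes include the assembly factors, which in turn include the 5 Ndufaf members, so the counts overlap. With the replicate block, 2 members were higher and 1 lower, 9 assembly factors lower and 12 list genes lower. The members that lost their call there were Atp5f1d (adjusted p by limma 0.108), Sdha (0.0841) and Ndufaf7 (0.0601), with 23.2% of all genes called. No label says what the replicate number marks, and the deviations of same-numbered arrays correlated at -0.098. An offset of 1 gave 0 members, 5 assembly factors and 7 list genes lower and 1 assembly factor higher. With it 20% of all genes were called. Members lower numbered 5 with an offset of 64, 19 after quantile normalization and 5 after cyclic loess. In these settings 35.2%, 37% and 33.8% of all genes were called. Members lower numbered 6 with the filter on dim probe sets and 10 with an intensity trend. There 52% of the 8917 genes kept and 36.5% of all genes were called. The intensity trend called 6 members and 25 list genes higher. Quantile normalization called 33 list genes lower.

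With array medians subtracted, quantile normalization and cyclic loess, the median log2 differences were 0.030, -0.19 and -0.11 over all members. In the same order they were 0.047, -0.052 and -0.015 over all genes. Complex I had -0.0017, -0.22 and -0.11, and complex II had -0.069, -0.29 and -0.19. Complex III had 0.068, -0.16 and -0.087, complex IV 0.058, -0.12 and -0.10, and complex V 0.043, -0.18 and -0.10.

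Leaving out 1 array gave 1 member higher each time and 0 to 2 lower, 1 to 2 assembly factors higher and 0 to 10 lower, 3 to 9 list genes higher and 1 to 15 lower, and medians of -0.11 to -0.046 in complex I and -0.18 to -0.12 in complex II. The lone array left in a group is then assumed to vary like the other group. Over all alternatives the genes named by rule and Ndufs3 lost their call 77 times and gained one 33 times, with 0 called genes reversed. Other genes named here, such as Gabpb1, Sdhaf2, Sdhaf3, Ttc19 and Timm8a1, were not in that count. The causes of these changes were not tested.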
